A study of Mus musculus with 42 samples.

Results

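The 10 genes described here encode components and receptors of the complement system. They were taken by symbol from the gene count table as C1qa, C1qb, C1qc, C2, C3, C4b, Cfb, C3ar1, C5ar1 and Serping1, and all 10 of the 26811 genes in the table were found, with 16932 genes, these 10 included, passing the filter on low counts. The data are poly(A) RNA-seq profiles of 42 MC38 tumors, 1 per mouse, from an experiment that asked whether blocking GM-CSF or the IL-2 receptor β subunit changes the tumor response to an antibody against PD-1 (aPD1), an inhibitory receptor of T lymphocytes. MC38, a mouse colon carcinoma line derived from C57BL/6 mice, was grown under the skin of female CC075/UncJ x C57BL/6J F1 mice (CC75×B6), 8 to 12 weeks old. Mice received antibodies every 3 days until their tumors reached 75 to 110 mm3. These were 100 μg of aGM-CSF, 200 μg of aIL2RB, both, or isotype controls. Then aPD1 (200 μg) or a control antibody was injected once, and tumors were taken after 48 h. There were 5 mice with isotype controls only (isotype group) and 6 with aPD1 plus the controls of the blocking antibodies (aPD1 group). Another 9 mice made up the aPD1 + aGM-CSF group, 11 the aPD1 + aIL2RB group, and 11 received all 3 (aPD1 + aGM-CSF + aIL2RB). No group received a blocking antibody without aPD1.

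Complement is a cascade of plasma proteins that tags cells and particles for uptake and can lyse them. In the classical pathway, C1q, built from the products of C1qa, C1qb and C1qc, binds antibody or altered surfaces, and cleaved C4 and C2 then form an enzyme that splits C3. In the alternative pathway, factor B, encoded by Cfb, joins C3 fragments in another such enzyme. The released fragments C3a and C5a act on the receptors encoded by C3ar1 and C5ar1, while the C1 inhibitor, encoded by Serping1, blocks the proteases that C1q activates. The liver makes most of the plasma proteins. Tissue macrophages make most C1q, and interferons induce several of these genes in many cell types.

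Total expected counts per tumor ranged from 7155486, in aPD1 + aGM-CSF + aIL2RB replicate 4, to 24101674, with all others at 15109227 or more. The tumors were divided along their replicate numbers into sets of 22 and 20 tumors that no label names. This boundary was drawn with expression in these tumors in view, so counts and p-values between the sets describe these tumors and are no independent evidence that the sets differ. On the second principal component, with group means subtracted, set 1 ran from -8.68 to 21.96 and set 2 from -34.1 to 5.11, so the sets overlapped. Set 1 took in the isotype tumors up to replicate 2, the aPD1 tumors up to replicate 3, the aPD1 + aGM-CSF tumors up to replicate 5 and, in either aIL2RB group, the tumors up to replicate 6. With treatment in the model, 25.1% of all genes tested differed between the sets, and of the 10 complement genes C3 did, by -0.57 on the log2 scale in set 2 (SE 0.18). Treatment effects are therefore also given within the sets. Levels below are in CPM, counts scaled to a common total after TMM normalization, and a bulk profile cannot tell fewer cells of a type from less RNA per cell, or tumor from host RNA. The MC38 list of 4 epithelial genes (Krt8, Krt18, Epcam and Shisal2b) summed to 11.2 to 40.8 CPM per tumor. Most of this was Shisal2b, with group means of 15.1 to 24.6 CPM, while Krt8, Krt18 and Epcam had group means of 0.195 to 2.43 CPM, so these 3 hardly mark the tumor cells here.

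All 10 complement genes were higher after aPD1 than after isotype in group mean, and 7 rose at an adjusted p under 0.05: the 3 C1q subunits, C3, C4b, Cfb and C3ar1. In this comparison 6.17% of all genes tested rose (1045 higher and 430 lower, or 769 and 1174 with normalization by library size only). Cfb rose most, by 1.69 on the log2 scale (3.23-fold, SE 0.35, edgeR adjusted p = 0.00235), followed by C3 and C4b, while the C1q subunits and C3ar1 rose by 1.51- to 1.62-fold. The median log2 fold change was 0.83 for the complement genes and -0.0023 over all genes tested. C2, C5ar1 and Serping1 were also higher in mean, with an unadjusted p under 0.05 as for all 10 (24.1% of all genes tested), but their adjusted p was 0.101, 0.0710 and 0.0638.

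The C1q subunit genes lie side by side on the minus strand of chromosome 4 (GRCm38), C1qa (ENSMUSG00000036887) from 136895917 to 136898803, C1qc (ENSMUSG00000036896) from 136889804 to 136893065 and C1qb (ENSMUSG00000036905) from 136880129 to 136886187. They gave the most RNA per length of the 10 genes in every group. In isotype tumors C1qa was at 295 ± 29.8, C1qb at 251 ± 26.8 and C1qc at 148 ± 13.6 CPM per kb of exon (SD, n = 5), ahead of C3ar1 at 30.03 ± 3.79 CPM per kb. Since the 3 genes moved together, the 250 bases before the RefSeq start were read (GRCm38.p6, minus strand) for C1qb, at chr4:136886201-136886450, and for C1qc, at chr4:136892915-136893164. Capitals mark the letters GAGGAA, the core bound by the myeloid factor PU.1, or their reverse complement TTCCTC. They lie 30 to 25 bases before the RefSeq start in C1qb and 193 to 188 bases before it in C1qc. The gene positions above come from another annotation. In it C1qc reaches to 136893065, so part of its window lies within the gene and the match lies closer to that end.
C1qb: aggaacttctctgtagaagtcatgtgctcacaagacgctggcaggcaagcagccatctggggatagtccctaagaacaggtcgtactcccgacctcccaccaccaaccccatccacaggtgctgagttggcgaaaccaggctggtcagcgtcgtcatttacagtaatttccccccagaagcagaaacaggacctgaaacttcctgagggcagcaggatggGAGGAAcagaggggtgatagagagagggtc
C1qc: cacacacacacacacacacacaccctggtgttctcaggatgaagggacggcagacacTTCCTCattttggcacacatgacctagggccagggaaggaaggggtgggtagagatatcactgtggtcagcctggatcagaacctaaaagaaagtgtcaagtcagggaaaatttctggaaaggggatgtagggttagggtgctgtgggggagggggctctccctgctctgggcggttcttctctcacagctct
Such letters occur on either strand in 23.3% of 32851 RefSeq promoter windows of this length, and neither window held the interferon motifs TTCNNNGAA (GAS) or ISRE.

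C1qa was at 271, 356, 295, 307 and 305 CPM in isotype replicates 1 to 5, and its lowest, median and highest values in aPD1 tumors were 337, 448 and 595 CPM. All but 1 of the 6 aPD1 tumors were above every isotype tumor, the exception being aPD1 replicate 2 at 337 CPM. The rise was 0.59 on the log2 scale (SE 0.15, edgeR adjusted p = 0.0137). C1qb was at 231, 312, 271, 269 and 280 CPM in isotype tumors and at 289, 416 and 567 CPM (lowest, median, highest) after aPD1, a rise of 0.66 (SE 0.17, edgeR adjusted p = 0.0117). C1qc ranged from 257 to 324 CPM after isotype and from 322 to 560 CPM after aPD1, a rise of 0.65 (SE 0.15, edgeR adjusted p = 0.00679). For both genes, too, 5 of 6 aPD1 tumors exceeded every isotype tumor.

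C4b (ENSMUSG00000073418, chromosome 17, 34728380 to 34743882, minus strand) encodes the C4 protein. It was at 27.7, 46.2, 34.2, 27.9 and 41.01 CPM in isotype replicates 1 to 5, and at 38.99, 79.2 and 113 CPM (lowest, median, highest) in aPD1 tumors. Of the 6 aPD1 tumors, 4 lay above every isotype tumor, and replicates 1 and 2 lay within the isotype range at 42.2 and 38.99 CPM. C4b rose by 1.09 (SE 0.35, edgeR adjusted p = 0.0426), a call that was lost when single tumors were left out in 8 of 11 fits (adjusted p between 0.0532 and 0.124, with log2 fold changes of 0.94 to 1.15). Its counts were not whole in 37 tumors, whereas the sum with its near-copy C4a was whole in all 42. C4a had at most 23.5 counts where C4b had 319.4 to 2618.5. These sums do not tell how many reads matched both genes.

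C2 (ENSMUSG00000024371, chromosome 17, 34862604 to 34898265) encodes the protease partner of C4. It was the lowest of the 10 genes per kb in every group, with 12 to 216 counts per tumor. In isotype replicates 1 to 5 it was at 1.89, 2.37, 2.27, 2.53 and 4.25 CPM, and aPD1 tumors ranged from 2.58 to 9.29 CPM around a median of 5.21. The groups overlapped through isotype replicate 5 and aPD1 replicates 1 and 2, and the log2 fold change of 1.02 missed the threshold (SE 0.40, edgeR adjusted p = 0.101). C2 shares its locus with Cfb and with a readthrough gene, Gm20547 (0 to 64 counts). The counts of C2 and Cfb were not whole in 27 tumors each, which leaves the low C2 level the more uncertain of the pair. Zbtb12, on the other strand, overlaps C2 and had 182 to 749 counts.

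C3 (ENSMUSG00000024164, chromosome 17, 57203970 to 57228136, minus strand) encodes the protein on which all pathways converge. It was at 37.8, 75.8, 45.9, 29.0 and 58.0 CPM in isotype replicates 1 to 5. In aPD1 tumors the lowest, median and highest values were 61.1, 130 and 156 CPM. Only aPD1 replicate 2, at 61.1 CPM, fell into the isotype range, and the other 5 were at 122 to 156 CPM. C3 rose by 1.34 on the log2 scale (SE 0.37, edgeR adjusted p = 0.0197). The 250 bases before its RefSeq start (GRCm38.p6, chr17:57228137-57228386, minus strand) are shown because the gene is known to be driven through a C/EBP element close to the start. Capitals mark TTGCGAAA, 45 to 38 bases before the start, the single match to the C/EBP letters TTGCNNAA, which 9.56% of the 32851 windows hold on either strand.
C3: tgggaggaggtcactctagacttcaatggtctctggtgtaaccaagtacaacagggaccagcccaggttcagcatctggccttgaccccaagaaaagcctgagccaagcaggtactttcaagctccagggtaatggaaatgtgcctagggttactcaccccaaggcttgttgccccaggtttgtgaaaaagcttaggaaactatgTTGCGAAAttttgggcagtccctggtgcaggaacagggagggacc
The interferon motif letters, present in 7.02% (GAS) and 2.98% (ISRE) of windows, were not in this window.

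Cfb (ENSMUSG00000090231, chromosome 17, 34856374 to 34862518, minus strand) lies next to C2 and encodes the protease of the alternative pathway. In isotype replicates 1 to 5 it was at 40.3, 66.5, 46.6, 52.7 and 62.4 CPM. After aPD1 its lowest, median and highest values were 92.4, 198 and 230.4 CPM. Every aPD1 tumor was above every isotype tumor, which held for Cfb and C3ar1 among the complement genes and for 3.38% of all genes tested. With this rise Cfb moved ahead of C3ar1 per kb of exon, from 19.01 ± 3.84 (SD, n = 5) in isotype to 61.5 ± 19.8 CPM per kb (SD, n = 6) in aPD1 tumors, where C3ar1 was at 48.7 ± 11.3 CPM per kb. This difference in order lay within the spread between tumors.

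The anaphylatoxin receptors are found on myeloid cells. C3ar1 (ENSMUSG00000040552, chromosome 6, 122847138 to 122856161, minus strand) was at 104, 138, 134, 124 and 146 CPM in isotype replicates 1 to 5 and at 148, 215 and 273 CPM (lowest, median, highest) after aPD1. It rose by 0.70 (SE 0.19, edgeR adjusted p = 0.0152), and the closest values of the groups were 146 and 148 CPM. C5ar1 (ENSMUSG00000049130, chromosome 7, 16246743 to 16259540, minus strand) was at 17.5, 28.02, 31.3, 34.9 and 34.5 CPM in isotype tumors and at 27.5, 43.7 and 65.7 CPM after aPD1. The groups overlapped, and its log2 fold change of 0.62 did not pass (SE 0.22, edgeR adjusted p = 0.0710). The RefSeq windows of C3ar1 and C5ar1 held none of the 4 motifs searched.

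Serping1 (ENSMUSG00000023224, chromosome 2, 84765387 to 84775444, minus strand), the inhibitor in the group, was at 13.3, 23.4, 19, 18.9 and 25.1 CPM in isotype replicates 1 to 5. In aPD1 tumors it was at 16.1, 40.3 and 56.6 CPM (lowest, median, highest). All aPD1 tumors but replicate 2 were above every isotype tumor, and the log2 fold change was 0.96 (SE 0.34, edgeR adjusted p = 0.0638). Across the complement genes, aPD1 replicate 4 was the highest for 9 of the 10 genes and aPD1 replicate 2 the lowest for 9. Without aPD1 replicate 2, C5ar1 and Serping1 also passed, making 9 (8.16% of all genes tested rose in that fit), and without aPD1 replicate 4 only 3 passed (C1qb, C1qc and Cfb, with 3.02% of all genes). Leaving out isotype replicate 1, the lowest of its group for 8 genes, left 4 (4.31% of all genes).

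**Figure D1:**
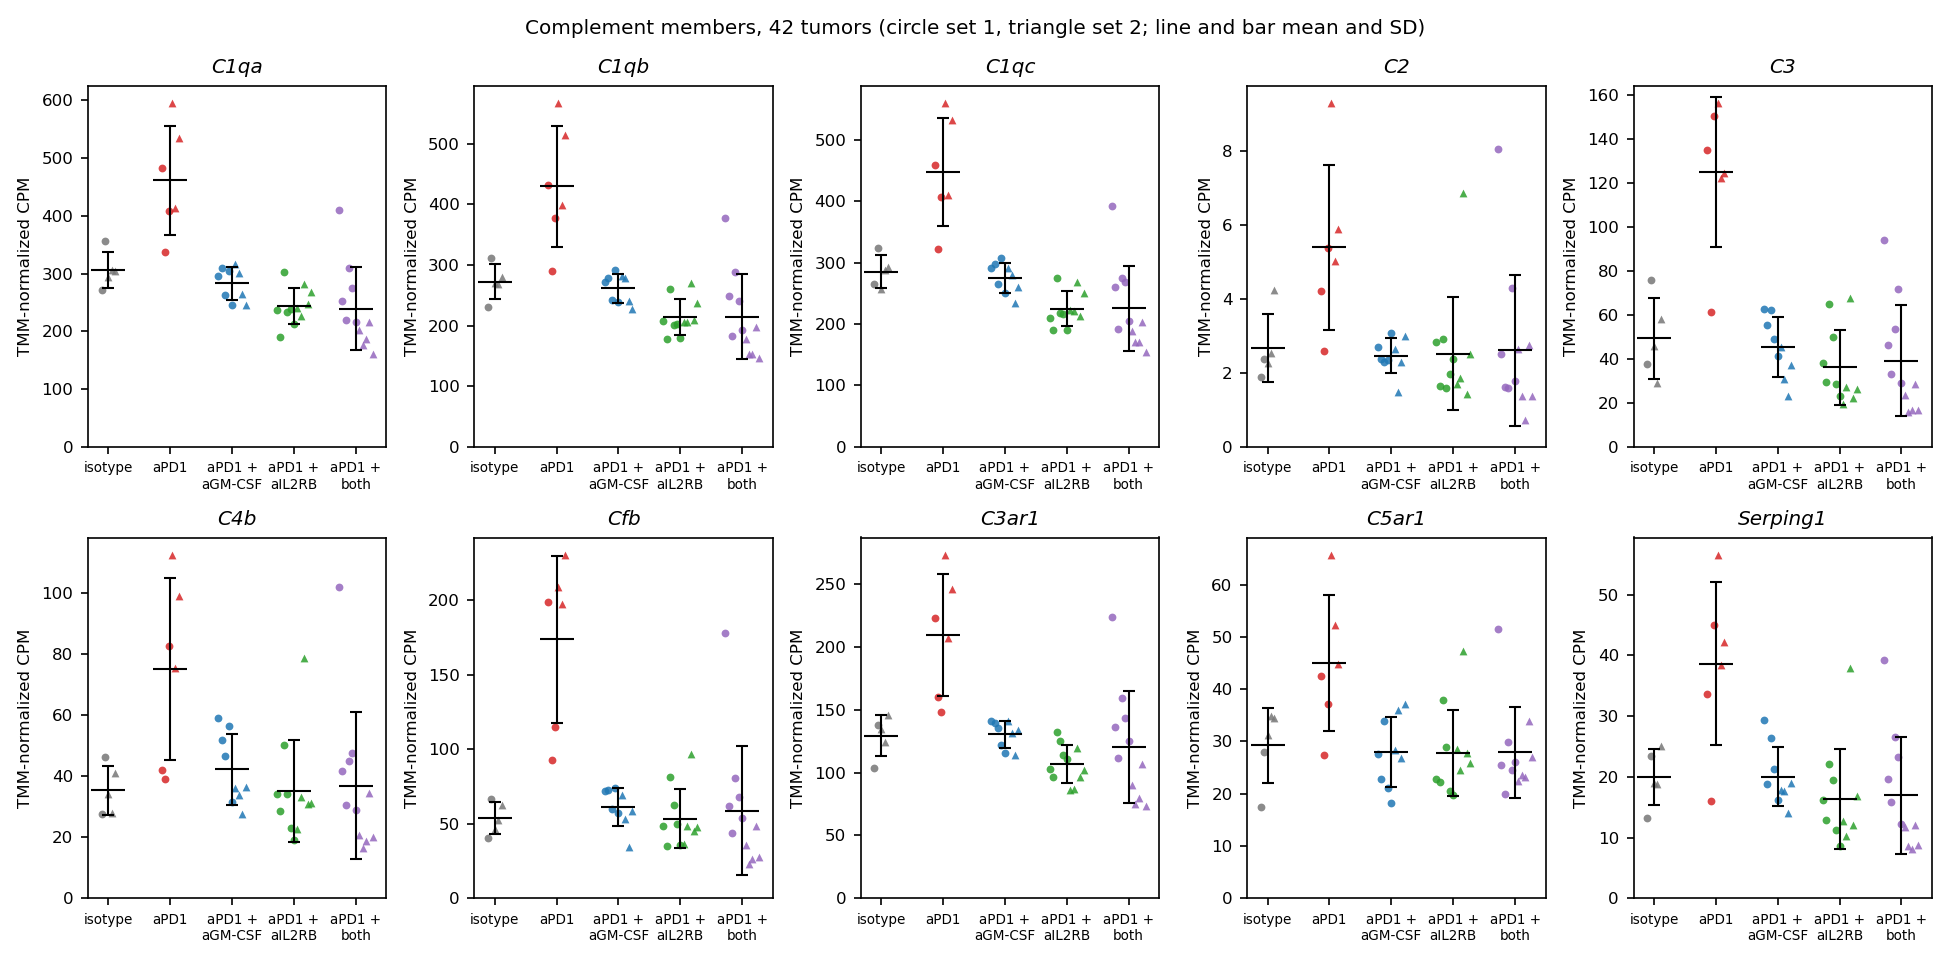
TMM-normalized CPM (linear axis from 0) of the 10 complement genes in each of 42 tumors by treatment group, with circles for set 1, triangles for set 2, and a line and bar for the mean and SD. The aPD1 group has the highest mean in every panel, and 1 tumor given both blocking antibodies stands above the rest of its group in every panel.

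With GM-CSF blocked, the complement genes were lower than after aPD1 alone, and 9 of 10 fell in edgeR's test, where 8.75% of all genes tested fell. Cfb was at 61.2 ± 12.7 CPM (SD, n = 9) and 2.84-fold lower (log2 fold change -1.51, SE 0.29, edgeR adjusted p = 0.000499). C3 was at 45.2 ± 13.6 CPM and 2.76-fold lower (log2 fold change -1.47, SE 0.31, edgeR adjusted p = 0.00152). The C1q subunits fell by 1.63- to 1.65-fold, C3ar1 and C5ar1 by 1.61-fold each, Serping1 by 1.93-fold and C2 by 2.20-fold. C4b, at 42.3 ± 11.6 CPM, did not pass (log2 fold change -0.84, SE 0.30, edgeR adjusted p = 0.0517). All 9 tumors were below every aPD1 tumor for 4 genes, C1qa, C1qc, Cfb and C3ar1, as for 2.2% of all genes tested. The median log2 fold change was -0.78, and 6 genes passed without aPD1 replicate 4, with C2, C5ar1 and Serping1 lost, while 813 of all genes fell in that fit in place of 1482.

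With IL2RB blocked, all 10 complement genes fell below aPD1, where 14.5% of all genes tested fell. C3 was at 36.1 ± 17.1 CPM (SD, n = 11), ranging from 19.6 to 67.5 around a median of 28.6 CPM. It was 3.46-fold lower than after aPD1 (log2 fold change -1.79, SE 0.30, edgeR adjusted p = 1.19e-05). Cfb ranged from 34.98 to 97.1 CPM with a median of 48.4 CPM and was 3.25-fold lower (log2 fold change -1.70, SE 0.27, edgeR adjusted p = 6.93e-06). The highest aPD1 + aIL2RB tumor for Cfb, replicate 9 at 97.1 CPM, passed the lowest aPD1 tumor, and this tumor was the highest of its group for 7 of the 10 genes. Serping1 fell by 1.24 on the log2 scale, C2, C4b and the C1q subunits by 0.92 to 1.10, C3ar1 by 0.98 and C5ar1 by 0.70. The groups did not overlap for the 3 C1q subunits and C3ar1, as for 2.99% of all genes tested, and the median log2 fold change was -1.05. Without aPD1 replicate 4, C2 did not pass.

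With both blocked, all 10 fell as well, with 14.3% of all genes tested. The changes ranged from -1.68 for C3 (SE 0.30, edgeR adjusted p = 3.97e-05) and -1.57 for Cfb (SE 0.27, edgeR adjusted p = 3.01e-05) to -0.69 for C5ar1 (SE 0.18, edgeR adjusted p = 0.00368), with a median of -1.02. C1qa was at 239 ± 71.7 CPM (SD, n = 11), ranging from 161 to 411 around a median of 216 CPM. Cfb ranged from 22.99 to 178 CPM with a median of 48.8 CPM. The values overlapped with those of aPD1 tumors for all 10 genes, while 0.827% of all genes tested were lower without overlap. Replicate 1 of this group was its highest tumor for all 10 genes. The same tumor had the highest macrophage, T and NK cell and interferon list sums of its group, at 3147, 62.5 and 2590 CPM. Without it all 10 genes still passed, at -1.90 for Cfb and -1.91 for C3. C2 missed the threshold when aPD1 replicate 4 was left out (edgeR adjusted p = 0.0783). The 4 comparisons share the 6 aPD1 tumors, so they are not independent of each other.

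**Figure D2:**
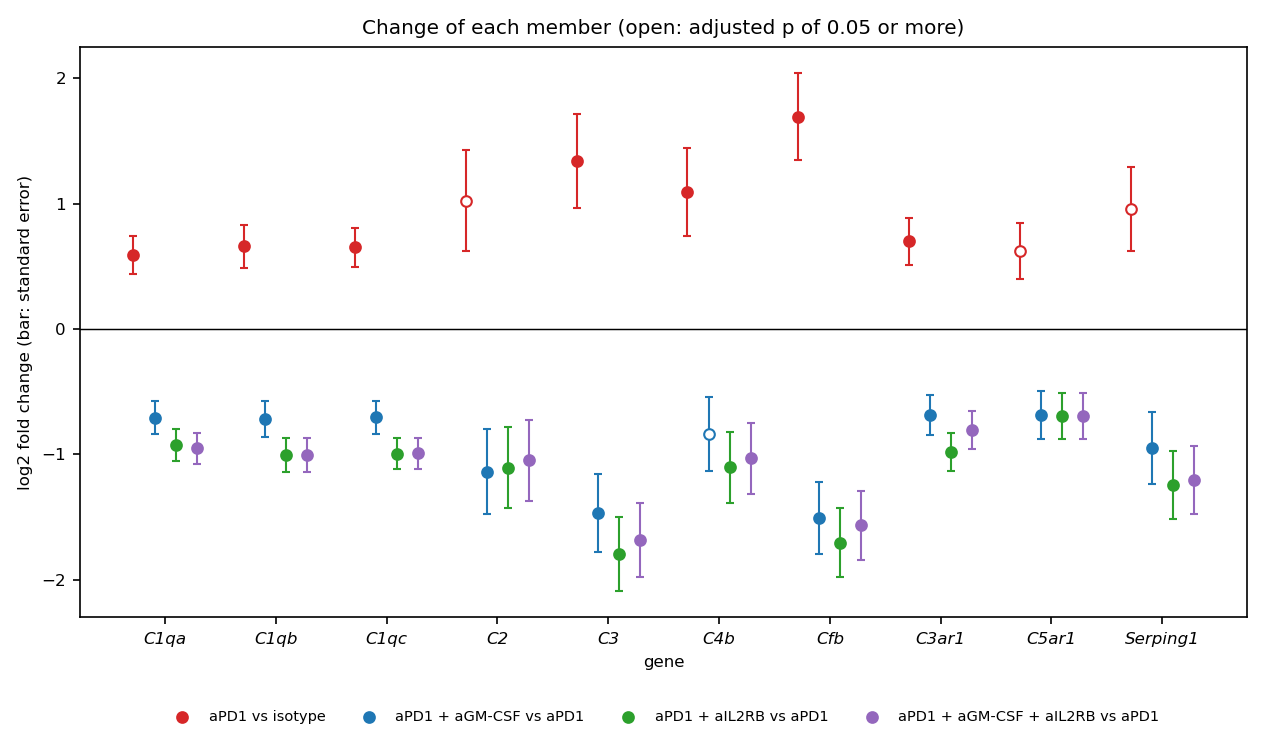
Log2 fold changes from edgeR of the 10 complement genes in the 4 comparisons with aPD1 tumors, with standard errors as bars and open circles where the adjusted p is 0.05 or more. Values for aPD1 against isotype lie between 0.59 and 1.69, and those of the blocking antibodies against aPD1 between -1.79 and -0.68.

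Between the groups given blocking antibodies and isotype, and among those groups, 0 of the 10 genes passed in edgeR or in DESeq2 with all tumors fitted, but some did in other fits. Against isotype, aPD1 + aGM-CSF tumors gave log2 fold changes from -0.13 (C3) to 0.25 (C4b), with 0 of the 10 genes at an unadjusted p under 0.05 in either tool (5.54% of all genes in edgeR), and 0.0% of all genes tested passed after adjustment. Under aPD1 + aIL2RB, the C1q subunits were at 78.7% to 79.4% of isotype (log2 fold changes -0.33 to -0.34, edgeR adjusted p between 0.153 and 0.191), where 3.2% of all genes tested passed. These 3 of the 10 had an unadjusted p under 0.05 in both tools, beside 18.1% of all genes in edgeR. With only these groups fitted the 3 passed (edgeR adjusted p between 0.0312 and 0.0431), where 1.47% of all genes fell. Under both antibodies the C1q subunits were at 77.9% to 79.0% of isotype (edgeR adjusted p between 0.0764 and 0.118), while 10.2% of all genes tested passed. Again these 3 had an unadjusted p under 0.05 in both tools, beside 26.7% of all genes in edgeR. Leaving out single tumors of this group changed the count. Without aPD1 + aGM-CSF + aIL2RB replicate 1, C1qa (-0.47, edgeR adjusted p = 0.00690), C1qb (-0.46, adjusted p = 0.0150) and C1qc (-0.45, adjusted p = 0.00785) were lower than in isotype tumors (5.4% of all genes in that fit), and without replicate 4, the tumor of lowest depth, C1qa alone passed (4.93%). With the mean log2 level of 8 macrophage genes as a covariate, 4 genes passed for aIL2RB and 3 for both against isotype, all lower, where 3.2% and 7.31% of all genes fell.

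Against aPD1 + aGM-CSF, aIL2RB gave 3 genes at an unadjusted p under 0.05 in edgeR and 2 in DESeq2 (C1qb, C1qc and C3ar1 at -0.29 each in edgeR), with 13.5% of all genes at this unadjusted threshold in edgeR and 1.52% passing after adjustment. With only these groups fitted, the 3 passed, where 1.92% of all genes fell. Both antibodies gave the 3 C1q subunits at -0.25 to -0.29 with an unadjusted p under 0.05 in both tools, beside 17.3% of all genes in edgeR, and 2.13% of all genes tested passed after adjustment. Without replicate 1 of the group given both, these were called as well, at -0.35, -0.40 and -0.40 (edgeR adjusted p between 0.0102 and 0.0275), where 2.61% of all genes fell. The groups given aIL2RB with and without aGM-CSF differed by -0.03 to 0.17, with 0 genes at an unadjusted p under 0.05 in either tool (7.16% of all genes in edgeR) and 0.00591% of all genes tested passing.

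The interaction of the blocking antibodies asks whether the change with both equals the sum of the changes with each on the log2 scale. For 6 genes the change with both was less negative than that sum, C1qa by 0.68, C1qb by 0.72, C1qc by 0.71, C3 by 1.58, Cfb by 1.64 and C3ar1 by 0.86 (edgeR adjusted p between 0.00612 and 0.0140), where 5.29% of all genes tested passed in this direction. C2, C4b, C5ar1 and Serping1 gave 0.69 to 1.19 without passing (edgeR adjusted p between 0.0741 and 0.135). These values rest on the same 6 aPD1 tumors, and leaving out single tumors gave 5 to 10 genes. The count was 5 without aPD1 replicate 4 (2.35% of all genes passed in this direction), 9 without aPD1 replicate 2 (7.08%) and 10 without aPD1 + aIL2RB replicate 9 (6.65%), so the share of all genes moved with these tumors as well. With the replicate number as a block it was 4 (2.76%). Within set 2 alone 3 passed (C1qc, Cfb and C3ar1, with 4.14% of all genes), at values of 0.46 to 1.31 for the 10 genes. Within set 1 alone the values were 0.75 to 1.65, but 0 passed in edgeR (0.0862% of all genes), with 9 at an unadjusted p under 0.05 (16.7% of all genes).

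The comparisons with aPD1 tumors were also made within each set. Within set 1 (isotype n = 2, aPD1 n = 3), all 10 genes were higher after aPD1, by 0.38 to 1.34 on the log2 scale, but 0 passed in edgeR, with 0.00575% of all genes tested passing, and 3 had an unadjusted p under 0.05, beside 12.2% of all genes. Within set 2 (n = 3 each), 9 passed, all but C2, with differences of 0.70 to 1.99 and 9.33% of all genes tested passing. With aGM-CSF, 0 genes passed in set 1 in edgeR (0.069% of all genes passing, and 6 at an unadjusted p under 0.05 beside 13.5% of all genes) and 10 in set 2 (11.1%). With aIL2RB, 7 passed in set 1 (8.84%) and 10 in set 2 (13.3%). With both, C1qa and C1qc passed in set 1 (2.45%) and 10 in set 2 (16.7%). DESeq2 was not run within the sets. Counts within sets do not test whether the sets differ. The edgeR test of that difference called 0 of the 10 genes for aPD1 against isotype (0 at an unadjusted p under 0.05, 10.4% of all genes), 0 for aGM-CSF against aPD1 (4 unadjusted, 13.2%) and 0 for aIL2RB against aPD1 (1 unadjusted, 15.7%).

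For both antibodies against aPD1, the difference between the sets was called. There 8 genes fell further in set 2, all but C2 and C5ar1, with 6.55% of all genes tested passing in that direction. With single tumors left out 6 to 8 passed, and 6 without aPD1 replicate 2 or 4. The count was 7, with C3 lost, without aPD1 + aGM-CSF + aIL2RB replicate 1, 5, 8, 9 or 11. The share of all genes was not counted in these refits. Cfb was at 135 CPM in aPD1 tumors of set 1 and 212 CPM in those of set 2. In tumors given both antibodies it was at 81.0 ± 49.0 CPM in set 1 (SD, n = 6) and at 32.3 ± 10.3 CPM in set 2 (SD, n = 5), so aPD1 tumors were higher and these tumors lower in set 2. C4b showed the same, at 54.6 and 95.8 CPM after aPD1 and at 49.3 ± 26.97 and 22.1 ± 7.11 CPM with both. C3ar1 was at 150 ± 39.5 CPM with both in set 1 and at 84.98 ± 14.04 CPM in set 2. The cell type lists of this group parted by set as well. Macrophage list sums were 2290 to 3147 CPM in set 1 and 1592 to 1817 CPM in set 2. T and NK cell list sums were 8.48 to 62.5 CPM and 0.411 to 4.13 CPM. Interferon list sums overlapped, at 896 to 2590 CPM in set 1 and 774 to 1117 CPM in set 2. Against isotype, the group given both had lower C1qa, C1qb, C1qc, C3, C3ar1 and Serping1 in set 2 (log2 fold changes -0.65 to -1.13, where 6.52% of all genes fell), while in set 1 0 genes passed in edgeR, 0 had an unadjusted p under 0.05 (17.8% of all genes) and 6 were higher in mean. The difference between sets itself was called there for C3ar1 alone (0.685% of all genes), as it was against aPD1 + aGM-CSF (0.709%), and against aPD1 + aIL2RB for C1qa, C1qb, C1qc, C4b and Cfb (1.67%). What separates the sets was not tested.

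**Figure D3:**
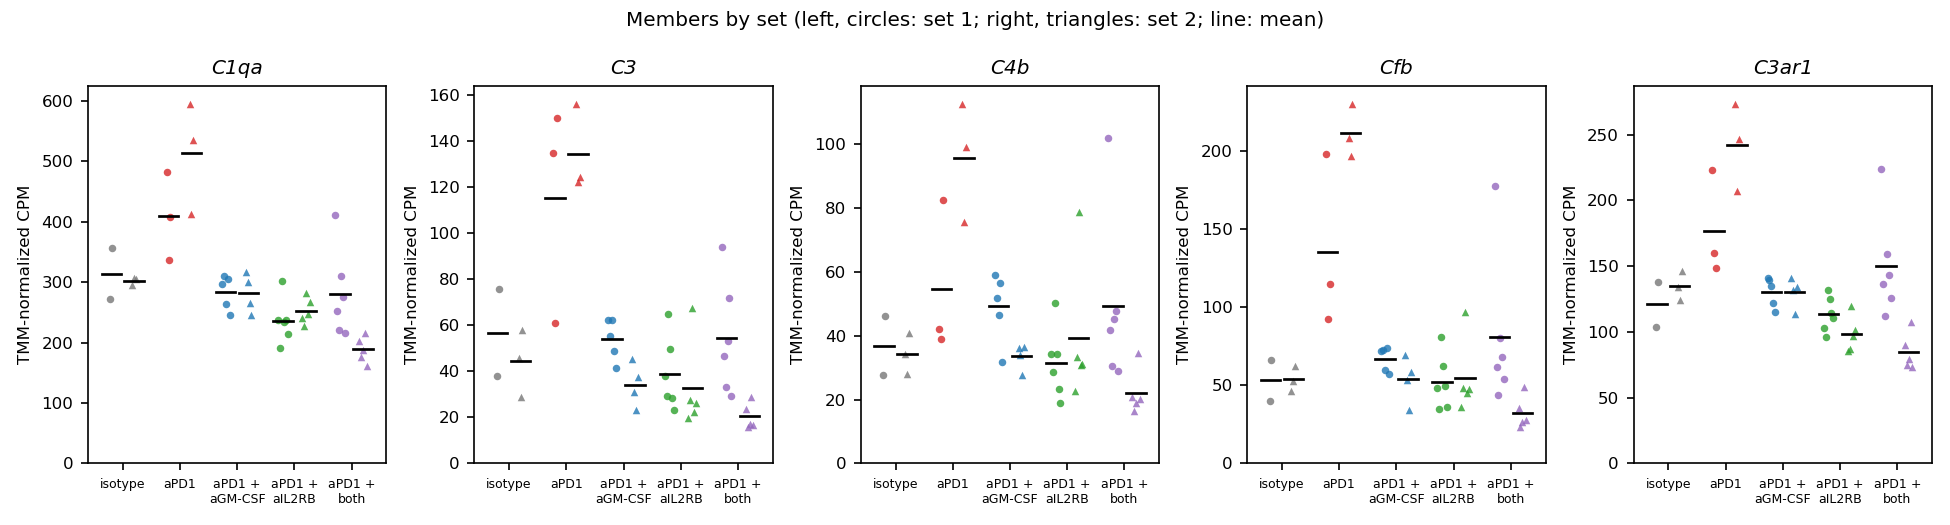
TMM-normalized CPM (linear axis from 0) of C1qa, C3, C4b, Cfb and C3ar1 per tumor, with set 1 as circles on the left and set 2 as triangles on the right of each group and a line at the mean. With both blocking antibodies the mean of Cfb is 81.0 CPM in set 1 and 32.3 CPM in set 2.

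Across the 42 tumors, with group means subtracted, the C1q subunits had the closest pattern of the 10 genes, with Pearson correlations of log2 CPM of 0.967 to 0.979 between pairs. C3, C4b, Cfb, Serping1 and C2 had correlations of 0.694 to 0.909 with each other, and over all 45 pairs the correlations ran from 0.450, for C3 with C5ar1, to 0.979, with a median of 0.797. All pairs share the same libraries. With set means also subtracted, the C1q values were 0.950 to 0.969, that of C3 with C5ar1 rose to 0.757, and the lowest of the 45 was 0.540, for C2 with C5ar1. The genes most like C1qa among 12442 other genes tested with a mean log2 CPM of at least 1 were Ncf4 (0.947), Laptm5 (0.939) and Ctss (0.934), all genes of phagocytes and other leukocytes. Those most like Cfb were Il2rg (0.956), Themis2 (0.952) and H2-T23 (0.951), and those most like C3 were Ccl8 (0.885), Anpep (0.884) and Sema4a (0.882). C5ar1 followed Adam8 (0.905), Cd36 (0.889) and Plin2 (0.883), and Serping1 followed Slc28a2 (0.896), Slc11a1 (0.888) and Itgb2 (0.880). For C2 the highest were Cped1 (0.811), Sema4d (0.799) and Ly6c1 (0.795), at its lower counts.

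**Figure D4:**
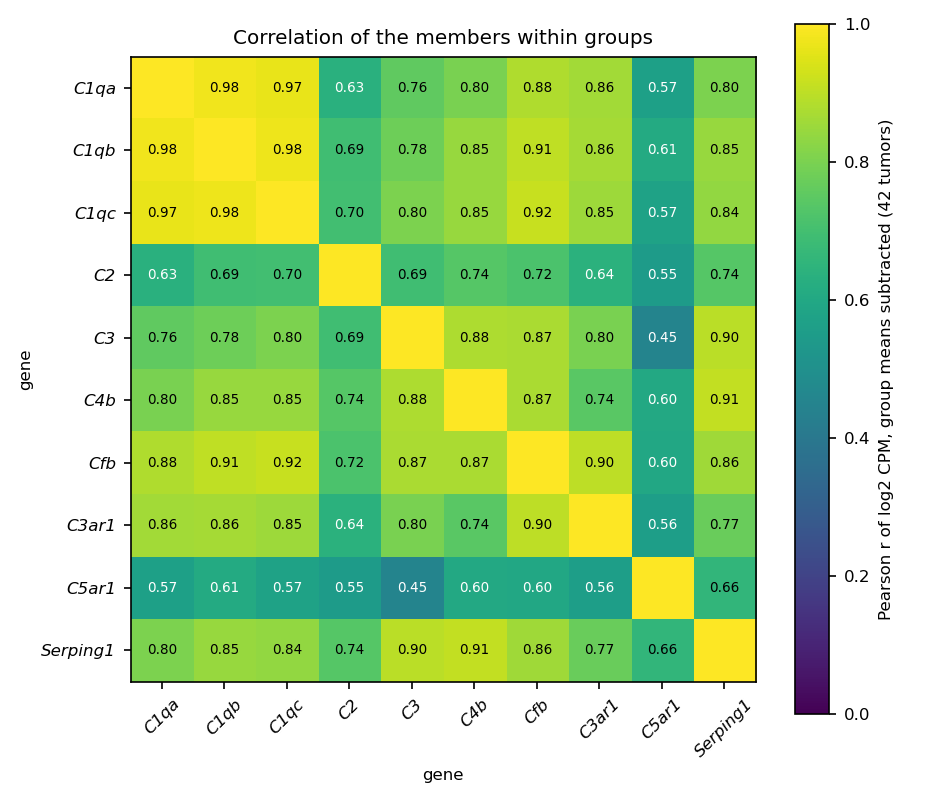
Pearson correlation of log2 CPM between each pair of the 10 complement genes over 42 tumors after group means were subtracted, with color and printed number giving r. The 3 C1q pairs are highest and the row of C5ar1 holds the lowest value, 0.45 with C3, which is 0.757 with set means also subtracted.

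Of 42 other complement genes listed, 36 were in the table and 25 passed the filter on counts. After aPD1, 3 of the 25 rose in edgeR's test (6.17% of all genes tested), Itgb2 by 0.82 (SE 0.26, adjusted p = 0.0371), Itgam by 0.62 (SE 0.18, adjusted p = 0.0269) and Cd93 by 0.48 (SE 0.12, adjusted p = 0.0123). Itgam and Itgb2 encode the chains of complement receptor 3, which binds C3 fragments on myeloid cells, and Cd93 encodes a surface protein of endothelial and myeloid cells once described as a C1q receptor. Against aPD1, 4 of the 25 fell with aGM-CSF, where 8.75% of all genes tested fell and 4.77% rose. With aIL2RB 9 fell and 3 rose (14.5% and 13% of all genes), and with both 5 fell and 4 rose (14.3% and 13.1%). The medians over the 25 genes were 0.50, -0.46, -0.30 and -0.19 in the 4 comparisons. In all, 14 of the 25 passed in at least 1 of them.

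Itgb2 averaged 127 ± 14.2 CPM with isotype (SD, n = 5), 223 ± 62.3 CPM with aPD1 (n = 6) and 93.1 ± 31.7 CPM with aPD1 + aIL2RB (n = 11), falling by 0.98, 1.26 and 1.21 on the log2 scale with aGM-CSF, aIL2RB and both. Cfp, encoding properdin, which stabilizes the alternative pathway enzyme, was at 36.2 ± 7.76 CPM in isotype and 60.6 ± 17.1 CPM in aPD1 tumors without passing (log2 fold change 0.75, SE 0.25, edgeR adjusted p = 0.0536), and it fell by 0.92, 1.12 and 1.16 with the blocking antibodies. Cd55, encoding decay accelerating factor, which takes apart the enzymes that split C3, was at 6.00 ± 2.89 CPM in aPD1, 2.96 ± 1.06 CPM in aPD1 + aGM-CSF and 1.28 ± 0.452 CPM in aPD1 + aIL2RB tumors. It fell by 2.23 with aIL2RB (SE 0.31, edgeR adjusted p = 8.27e-07), the largest change among these genes. Itgam fell by 0.74, 0.88 and 0.83 in the 3 comparisons, and Itgax, the other partner of Itgb2 in a complement receptor, fell by 0.80 with aIL2RB (SE 0.28, edgeR adjusted p = 0.0295). The membrane regulator Cd46 moved the other way, from 3.29 ± 0.799 CPM after aPD1 to 5.37 ± 1.34 CPM with aIL2RB (log2 fold change 0.71, SE 0.19, edgeR adjusted p = 0.00372).

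Macrophage genes moved with the complement genes. Of 8 macrophage genes (Adgre1, Csf1r, Cd68, Apoe, Lyz2, Mertk, Fcgr1 and Mrc1), 6 rose after aPD1 (6.17% of all genes tested rose), and 6, 5 and 5 fell with aGM-CSF, aIL2RB and both (8.75%, 14.5% and 14.3% of all genes fell). Mertk was at 67.4 ± 8.69 CPM in aPD1 (SD, n = 6), 74.9 ± 10.8 with aIL2RB and 78.2 ± 9.33 CPM with both (n = 11 each), without passing against aPD1. The summed level of the 8 was 2064 to 2533 CPM in isotype, 2458 to 4719 in aPD1, 1847 to 2273 in aPD1 + aGM-CSF, 1791 to 2718 in aPD1 + aIL2RB and 1592 to 3147 CPM in tumors given both. With the mean log2 level of this list as a covariate, 0 complement genes passed in edgeR for aPD1 against isotype (0.0% of all genes tested), 0 with aGM-CSF (0.0532%), 0 with aIL2RB (2.65%) and 1, C1qc, with both (4.71%), and the interaction gave 0. At an unadjusted p under 0.05 there were 0 for aPD1 against isotype (7.61% of all genes), 0 with aGM-CSF (12.7%), 3 with aIL2RB (22.4%), 3 with both (25.5%) and 0 for the interaction (9.6%). For both against aPD1 these were C1qa (log2 fold change -0.29, SE 0.11), C1qb (-0.31, SE 0.12) and C1qc (-0.35, SE 0.11). The covariate itself differed between the groups, so this fit does not test the part of macrophages in the changes. DESeq2 was not run with this covariate. The correlation of the list with the complement genes within groups was 0.835 for C3ar1, 0.813 for C1qa and 0.371 for C5ar1 (n = 42 tumors), the last being 0.556 with set means also subtracted. C3ar1 had 0.871 with the list of T and NK cell genes and 0.797 with that of interferon response genes, and C1qa had 0.813 and 0.831.

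Genes of other cells moved as well, and their counts stand beside the same shares of all genes, 6.17% rising after aPD1 and 8.75%, 14.5% and 14.3% falling with aGM-CSF, aIL2RB and both. Among 7 T and NK cell genes, 0 rose after aPD1 in edgeR, but their sum was 33.2 to 51.8 CPM in isotype and 60.8 to 124.5 CPM in aPD1 tumors, and 1, 7 and 7 fell with aGM-CSF, aIL2RB and both, to sums of 2.56 to 26.3 CPM with aIL2RB. Of 10 interferon response genes, 5 rose after aPD1 (log2 fold changes of the 10 from 0.23 to 1.94), and 7, 8 and 9 fell with the blocking antibodies. Cfb had the highest correlation of the complement genes with the interferon list, 0.929, and with the T and NK cell list, 0.874. Granulocyte genes (3 tested) summed to 9.88 to 13.6 CPM in isotype and 17.03 to 42.9 CPM in aPD1 tumors, with 1 rising after aPD1, and 2, 1 and 1 fell with aGM-CSF, aIL2RB and both. Nearly all of the sum was Csf3r, at 10.7 ± 1.15 CPM in isotype (SD, n = 5) and 30.1 ± 9.15 CPM in aPD1 tumors (n = 6), while S100a8 and S100a9 had group means under 1 CPM. Of the 6 fibroblast genes, 3 rose and 1 fell after aPD1, 1 rose and 2 fell with aGM-CSF, 2 rose and 4 fell with aIL2RB, and 2 rose and 1 fell with both. Their sums were 1371 to 1804 CPM in isotype and 1447 to 3071 CPM in aPD1 tumors. Markers of hepatocytes, the main source of plasma complement, were near 0, with at most 2 counts of Alb, 4 of Apoa1 and 8.8 of Serpina1a in any tumor. The part of these cells and of interferon in the changes of the complement genes was not tested.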

How the data were processed

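Paired reads came from poly(A) libraries of frozen tumors. The authors aligned them with bowtie 1.2.3 to transcriptomes of the founder strains of the Collaborative Cross (GRCm38) and deposited expected counts per gene from gbrs, without normalization, so reads shared by related genes were divided and 15.2% of the values are not whole. Total depth was 7155486 to 24101674 counts per tumor, which leaves C2 the least precise gene. Of 26811 identifiers, 26629 had a symbol in the name table. Groups came from the sample labels, with each tumor from its own mouse.

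Rounded counts were tested with edgeR 4.0.16 under R 4.3.3 (TMM, filterByExpr at its minimum count of 10 and total of 15, and quasi-likelihood tests with all 42 tumors in 1 model), with Benjamini-Hochberg adjustment within each pair of groups over 16932 genes and a threshold of 0.05. SE is the absolute log2 fold change over the root of F. Log2 CPM used a prior count of 2. DESeq2 1.42.0, other normalizations and filters, the replicate block, the set, the macrophage level, only the groups compared and each tumor left out were alternatives, and the same settings for the interaction and tumors left out of the difference between sets were added after seeing the data. Python 3.11.15 (scipy 1.17.1, pandas 2.3.3, numpy 2.4.6) served for ratios, correlations and sums, and ratios were compared by two-sided permutation tests, exact where the number of arrangements allowed it. Promoter windows and their coordinates are from RefSeq (GRCm38.p6), in which 5 of the 10 genes were matched. Gene positions are from GENCODE (GRCm38), whose gene ends can differ from the RefSeq starts, as for C1qc and C5ar1. Of C1qa, C2, C4b, Cfb and Serping1 no window is shown.

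The 10 genes and all gene lists were chosen with earlier results of these data known. All 10 are described. Of the other complement genes, those passing in any comparison with aPD1 tumors were counted and the 6 with the largest change at a mean log2 CPM of at least 1 named, with Cd93 named beside its count. For 6 of the 10 genes the 3 most correlated genes were named. The scripts were tested on simulated data.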

Additional observations from a re-analysis of the deposited data

Results flagged for a closer look

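Each of the 10 genes was examined in the 3 groups of 4 to 10 tumors (isotype, aPD1 and aPD1 + aGM-CSF), which gives 30 tests on shared tumors. In these, 3 single values lay far from the rest of their group, where chance gives about 1 in 20. The 2 groups of 11 tumors, one of them with the tumor that was highest for all 10 genes, were not examined in this way. C2 was at 4.25 CPM in isotype replicate 5, with the other isotype tumors at 1.89 to 2.53 CPM, and at 1.49 CPM in aPD1 + aGM-CSF replicate 7, with the others at 2.30 to 3.08 CPM. C3 was at 61.1 CPM in aPD1 replicate 2, with the other aPD1 tumors at 122 to 156 CPM.

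The comparison of aPD1 + aGM-CSF + aIL2RB with aPD1 differed between the 2 sets of tumors for 8 genes in an edgeR test of the difference (set 2 minus set 1, on the log2 scale). Among all 16932 genes tested, 1109 were lower and 445 higher in this test. The sets were drawn with expression in these tumors in view, so these p-values are no independent evidence that the sets differ. The difference was -0.90 for C1qa (adjusted p = 0.00604), -1.05 for C1qb (adjusted p = 0.00300), -0.92 for C1qc (adjusted p = 0.00465) and -1.65 for C3 (adjusted p = 0.0321). It was -1.97 for C4b (adjusted p = 0.00818), -1.98 for Cfb (adjusted p = 0.00595), -1.27 for C3ar1 (adjusted p = 0.000812) and -1.74 for Serping1 (adjusted p = 0.0166).

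By the same edgeR test, the comparison of this group with isotype differed between the sets for C3ar1, by -0.98 (adjusted p = 0.0334), and so did that with aPD1 + aGM-CSF, by -0.81 (adjusted p = 0.0358). The comparison with aPD1 + aIL2RB, which does not use the aPD1 tumors, differed by -0.67 for C1qa (adjusted p = 0.0373), -0.76 for C1qb (adjusted p = 0.0271), -0.70 for C1qc (adjusted p = 0.0276), -1.48 for C4b (adjusted p = 0.0478) and -1.41 for Cfb (adjusted p = 0.0486). Of all 16932 genes, 116 were lower in the test with isotype, 120 with aPD1 + aGM-CSF and 283 with aPD1 + aIL2RB. The same limit on the p-values holds here. All of these differences use the same 11 tumors given both antibodies, and what the sets are was not tested.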

How the results depend on the processing

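The size factors of DESeq2, library size alone, a filter on a total of at least 5 counts, DESeq2 and the set as a term left every count of passing complement genes within 1.5 times the reported one. For aPD1 against isotype these settings gave 6 to 8 genes (C4b was lost with the filter, and C5ar1 was added with DESeq2 and with the set), and for the interaction 6 or 7. Library size alone moved the split of all genes for aPD1 against isotype from 1045 higher and 430 lower to 769 higher and 1174 lower, while the same 7 complement genes passed and the log2 fold changes of all 10 were 0.50 to 1.60. A fit of only the groups compared gave 3 genes for aPD1 + aIL2RB against isotype (1.47% of all genes fell) and 3 for it against aPD1 + aGM-CSF (1.92%), in place of 0. Within set 1 alone the counts were 0 for aPD1 against isotype, 0 for aGM-CSF against aPD1, 2 for both antibodies against aPD1 and 0 for the interaction. Within set 2 alone they were 6, 4 and 3 for both antibodies against isotype, aPD1 + aGM-CSF and aPD1 + aIL2RB (6.52%, 4.93% and 1.51% of all genes fell), and 3 for the interaction (4.14%). Fewer tumors enter these fits, and the cause of the shifts was not tested.

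With the macrophage level as a covariate the counts against aPD1 or for aPD1 were 0 (aPD1 against isotype), 0 (aGM-CSF), 0 (aIL2RB), 1 (both) and 0 (interaction). They were 4 and 3 for aIL2RB and both against isotype (3.2% and 7.31% of all genes fell), and 4 and 3 for these groups against aPD1 + aGM-CSF (2.62% and 3.22%). Its log2 fold changes for aPD1 against isotype changed sign to -0.11 for C1qa, -0.093 for C1qb, -0.036 for C1qc, -0.17 for C2, -0.0095 for C3, -0.10 for C4b, -0.19 for C3ar1 and -0.24 for Serping1. Those for aGM-CSF against aPD1 turned to 0.00095 for C1qa, 0.035 for C1qb, 0.054 for C2, 0.36 for C4b, 0.20 for C3ar1 and 0.24 for Serping1. With aIL2RB they turned to 0.044 for C2 and 0.070 for C4b, and with both to 0.015 for C4b and 0.0068 for C3ar1. The other 8 stayed negative in each, from -0.47 (C3) to -0.085 with aIL2RB and from -0.47 (C3) to -0.012 with both. The interaction turned to -0.047 for C1qa, -0.061 for C1qb, -0.0022 for C1qc, -0.11 for C2, -0.41 for C4b, -0.056 for C3ar1 and -0.30 for Serping1.

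The fit with the replicate number as a block, which pairs tumors, gave 8, 9, 10 and 10 genes in the 4 comparisons with aPD1 tumors (6.85%, 7.32%, 15.2% and 16.9% of all genes in that direction), 0 in the others and 4 for the interaction (C1qc, C3, Cfb and C3ar1, with 2.76%). For aPD1 + aGM-CSF against isotype the block turned C1qb to 0.0017 and C1qc to 0.015. Same-numbered tumors had correlations of -0.168 to 0.193, over 0.1 for 16 of 67 pairs. Tumors with different numbers were not compared in this way, so these values do not tell whether the numbers pair tumors. Tumors numbered up to 2 were all in set 1 and those from 7 up all in set 2.

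With single tumors left out, 3 to 9 genes passed for aPD1 against isotype, 6 to 10 for aGM-CSF, 9 to 10 for aIL2RB and 9 to 10 for both against aPD1, 0 to 3 for both against isotype, 0 to 3 for both against aPD1 + aGM-CSF, 5 to 10 for the interaction and 6 to 8 for the difference of both against aPD1 between sets. Without aPD1 + aGM-CSF + aIL2RB replicate 4, the tumor of lowest depth, 1 gene passed for both against isotype. The other 4 comparisons stayed at 0. The number of all genes passing moved with the tumor left out as well. For the interaction it ran from 397 (without aPD1 replicate 4) to 1198 (without aPD1 replicate 2) in the direction of the complement genes. For aPD1 against isotype the shares of such fits are given above.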

Other observations

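The ratios of C1q subunit counts were close between groups. They are not scaled by exon length, unlike the levels per kb given above. The exon lengths used there were 1040 bases for C1qa, 1088 for C1qb and 1931 for C1qc, so the ratios do not compare RNA between subunits. The ratio of C1qb to C1qa counts had group means of 0.881 to 0.927, and that of C1qc to C1qa of 0.926 to 0.976. Of 20 two-sided permutation tests between pairs of groups, exact where the number of arrangements allows, 5 had p under 0.05 and 0 passed adjustment over the 20 (lowest adjusted p = 0.168).

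Lists of other cell types gave the following after aPD1 against isotype in edgeR's test, where 1045 of all 16932 genes tested rose and 430 fell. Of 4 B cell genes 1 rose, with sums of 1.51 to 8.22 CPM in isotype and 2.32 to 11.4 CPM in aPD1 tumors. Of 6 genes of conventional dendritic cells 0 rose or fell, at 28.7 to 38.3 and 33.3 to 39.5 CPM. Of 4 endothelial genes 2 rose, at 110 to 151 and 124 to 185 CPM. Of 4 adipocyte genes 0 changed, at 8.69 to 42.97 and 5.82 to 53.7 CPM, and of the 4 MC38 genes 0 changed, at 19.5 to 31.2 and 13.7 to 26.1 CPM. Unadjusted calls and DESeq2 were not counted for these lists.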
